A study of Mus musculus with 9 samples.

Results

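The nuclear-encoded subunits of the mitochondrial respiratory chain were described in mouse tumours given Lipo-TriTE, Lipo-BiTE or PBS. Members were all protein-coding entries of the count table whose names begin with Ndufa, Ndufb, Ndufc, Ndufs, Ndufv, Uqcr, Cox4 to Cox8 or Atp5, together with Sdha, Sdhb, Sdhc and Sdhd. The assembly factors whose names begin with Ndufaf were left out. The rule found 84 of 44806 entries: 36 in complex I, 4 in complex II, 8 in complex III, 19 in complex IV and 17 in complex V. Of these 84, 81 passed the filter on low counts, as did 16596 entries in all. Ndufa4, a subunit of cytochrome c oxidase in spite of its name, and its relative Ndufa4l2 were counted with complex IV. Atp5sl was counted with complex V by its name, although the deposited description calls it a factor for the assembly of complex I.

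All tumours grew from MB49, a mouse bladder carcinoma line, and all are described as overexpressing HER2, a receptor tyrosine kinase. There were 3 libraries each for Lipo-TriTE, Lipo-BiTE and PBS. BiTE usually abbreviates bispecific T cell engager, a class of molecules that link T cells to tumour cells; neither agent's targets are spelled out in the labels. Dose, time, mouse strain, sex and age are not given, no group received the carrier alone, and separate animals are not stated for the libraries of a group. The p-values then measure only how these samples vary, which may be technical. The labels and extraction protocol describe frozen whole tumours, whereas the design text speaks of sorted CD3-positive T cells. In every PBS and Lipo-BiTE library the summed fibroblast markers and the summed epithelial and tumour cell markers, given below, each exceeded the summed T cell markers.

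The respiratory chain sits in the inner mitochondrial membrane. Complexes I and II pass electrons from NADH and succinate to coenzyme Q, complex III passes them on to cytochrome c, and complex IV hands them to oxygen. Complexes I, III and IV pump protons, and complex V, the ATP synthase, uses the returning protons to make ATP. Most subunits are encoded in the nucleus, and a minority, in the catalytic cores, by mitochondrial DNA. Dividing tumour cells, activated lymphocytes and macrophages all hold these complexes, in amounts that differ with their state, and several complex IV subunits exist as a common isoform and one typical of heart and skeletal muscle. The mitochondrially encoded subunits were not analysed here.

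Libraries held 13152783 to 20273548 counts, of which members took 0.59% to 0.862%. The level of a gene is its CPM, a count brought to a common library size after TMM, and 3 counts in a library equalled 0.146 to 0.237 CPM. The cellular makeup of the groups differed strongly. The summed level of 8 T cell markers was 804 to 1351 CPM in Lipo-TriTE, 180 to 335 CPM in Lipo-BiTE and 36.7 to 43.2 CPM in PBS libraries, and all 8 rose in each of the 3 comparisons. Summed macrophage markers stood at 677 to 1166 CPM, 981 to 2859 CPM and 149 to 190 CPM in Lipo-TriTE, Lipo-BiTE and PBS libraries. Summed neutrophil markers stood at 1446 to 4447 CPM, 1269 to 6666 CPM and 220 to 383 CPM in the same order, and proliferation markers at 926 to 1043 CPM, 831 to 1239 CPM and 1293 to 1592 CPM. Summed fibroblast markers stood at 896 to 1397 CPM, 1305 to 2218 CPM and 1991 to 3029 CPM in the same order. Summed epithelial and tumour cell markers stood at 396 to 677 CPM, 610 to 841 CPM and 902 to 975 CPM. Their members did not move alike: of 5 tested, 1 rose and 0 fell in Lipo-BiTE against PBS. In Lipo-TriTE against PBS 1 of these 5 rose and 2 fell. In such whole-tumour RNA, fewer cells of a type and less RNA per cell cannot be told apart, and the part of cell makeup in the values below was not tested.

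Across the chain few members passed the test, where a larger share of all tested genes did. In Lipo-BiTE against PBS, 0 of 81 members passed the edgeR test (quasi-likelihood, adjusted p below 0.05), whereas 17% of all tested genes did, 13.8% higher and 3.22% lower. There, 8 members had an unadjusted p under 0.05 (32.5% of all genes), and DESeq2 called 1, Cox6a1, higher (16.6% of all genes higher, 6% lower). In Lipo-TriTE against PBS, 4 members rose (Cox6a2, Ndufb7, Cox6a1 and Ndufa6) and 0 fell, where 33.6% of all genes were called, 18.9% higher and 14.8% lower. At an unadjusted edgeR p under 0.05 there were 8 members (43.9% of all genes, either direction), all with a positive fold change and including these 4. DESeq2 called 8 members higher and 0 lower (22% and 15.3% of all genes). In Lipo-TriTE against Lipo-BiTE, 1 member rose, Cox6a2, and 0 fell, where 10.1% of all genes were called, 4.88% higher and 5.21% lower; edgeR gave 6 members with an unadjusted p under 0.05 (26% of all genes), and DESeq2 called 3 higher and 0 lower (8.89% and 7.26% of all genes). The comparison of the treated groups with each other is called direct below. All 3 comparisons share groups, so their values are not independent.

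Member fold changes lay close to 0. The median log2 fold change over the 81 members was −0.06 for Lipo-BiTE over PBS, 0.07 for Lipo-TriTE over PBS and 0.16 in the direct comparison, beside −0.02, 0.00 and −0.01 over all tested genes. Positive fold changes numbered 33, 55 and 64 of 81 in the same order. The groups compared did not overlap for 9 members higher and 9 lower when Lipo-BiTE was set against PBS (22.7% and 19.4% of all genes, 42.1% in either direction), for 9 higher and 2 lower in Lipo-TriTE against PBS (26% and 23.4%, 49.5% in either direction), and for 18 higher and 2 lower in the direct comparison (16.1% and 14.4%, 30.5% in either direction). Leaving out PBS 1 turned the first median to 0.04 and leaving out Lipo-BiTE 2 to 0.02, while it was −0.15 without PBS 3 and −0.10 without Lipo-BiTE 3. Leaving out Lipo-TriTE 3 turned the second to −0.03 and moved the third to 0.05. Without Lipo-BiTE 2 or 3 the third was 0.09 or 0.26, and without PBS 1, Lipo-TriTE 1 or Lipo-TriTE 2 the second was 0.17, 0.15 or 0.13. The 95% interval of the fold change lay wholly within 2-fold in either direction for 66, 68 and 68 of 81 members, against 47%, 40% and 47.6% of all tested genes. It lay within 1.41-fold for 18, 23 and 22 members, against 11.8%, 9.51% and 14.1% of all genes. Interval width also depends on level. For most members a change of more than 2-fold thus fell outside the interval.

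**Figure D1:**
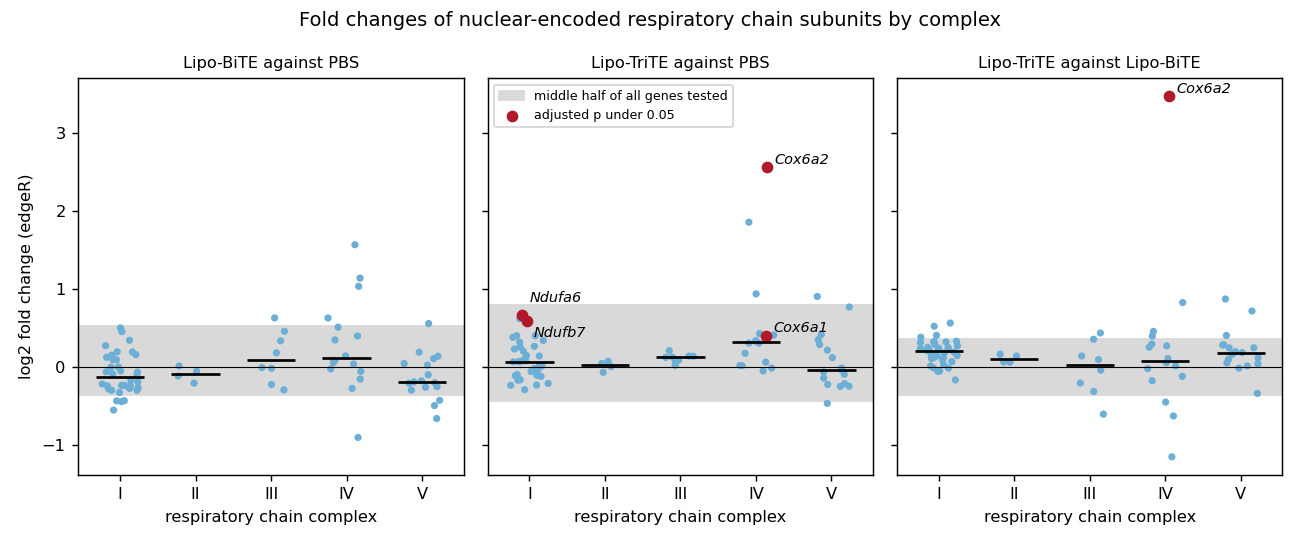
Log2 fold changes (y axis) of the 81 tested subunits by complex (x axis) in each comparison. Each point is a gene, black bars are medians, the grey band spans the interquartile range of all tested genes, and the members that passed the test are red and named: 4 in Lipo-TriTE against PBS, 1 in the direct comparison and 0 in Lipo-BiTE against PBS.

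Summed over all 84 members, the level was 7014, 7281 and 8285 CPM in Lipo-TriTE, 6792, 6217 and 7234 CPM in Lipo-BiTE and 8420, 7093 and 6675 CPM in PBS libraries. The 3 groups overlapped. The ratio of means was 0.912 for Lipo-BiTE over PBS, 1.02 for Lipo-TriTE over PBS and 1.12 in the direct comparison. By complex, the ratio for Lipo-TriTE against PBS ran from 0.952 for complex V to 1.2 for complex IV. That for Lipo-BiTE against PBS ran from 0.864 for complex V to 1.06 for complex IV. The complex IV log2 ratio for Lipo-TriTE against PBS, 0.265, was 0.104 without Lipo-TriTE 3 and 0.386 without PBS 1. In the direct comparison it was 0.178, and it was 0.0172 without Lipo-TriTE 3 and 0.256 without Lipo-TriTE 1. Complex I and complex II sums were higher in every Lipo-TriTE library than in every Lipo-BiTE library, at 1687 to 1952 CPM against 1423 to 1674 CPM for complex I and at 541 to 578 CPM against 485 to 540.4 CPM for complex II; these sums carry no test.

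Within each group, 1 library was high for most members. PBS 1 was the highest PBS library for 61 of 81 members (75.3%), where it was highest for 40.4% of all tested genes. Lipo-TriTE 3 was the highest of its group for 58 members (71.6%, against 31.2% of all genes) and Lipo-BiTE 3 for 52 (64.2%, against 35.8%). The median log2 ratio of a member in PBS 1 to the other PBS libraries was 0.33, and for Lipo-TriTE 3 it was 0.28. Mitochondrial ribosomal proteins, nuclear-encoded parts of the organelle's own translation machinery, had the same libraries highest most often, with PBS 1, Lipo-TriTE 3 and Lipo-BiTE 3 highest for 79.7%, 60.8% and 71.6% of 74 genes. Protein-coding genes with models of at most 1000 bases were highest in PBS 1 and Lipo-TriTE 3 for 53.6% and 54.8% of 496 genes, and in Lipo-BiTE 1 and Lipo-BiTE 3 alike for 41.9%. Members with longer models were highest in PBS 1 and Lipo-TriTE 3 in 78.2% and 72.7% of 55 cases. The part of gene length in this pattern was not tested beyond these shares. With PBS 1 and Lipo-TriTE 3 both left out, 2 of 82 members were higher in Lipo-BiTE against PBS (Cox8a and Ndufa6), as were 1394 of 17053 genes in all. In Lipo-TriTE against PBS that fit called 4 members higher (Cox6a2, Ndufa6, Ndufb7 and Ndufs4), beside 2566 of 17053 genes in all.

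**Figure D2:**
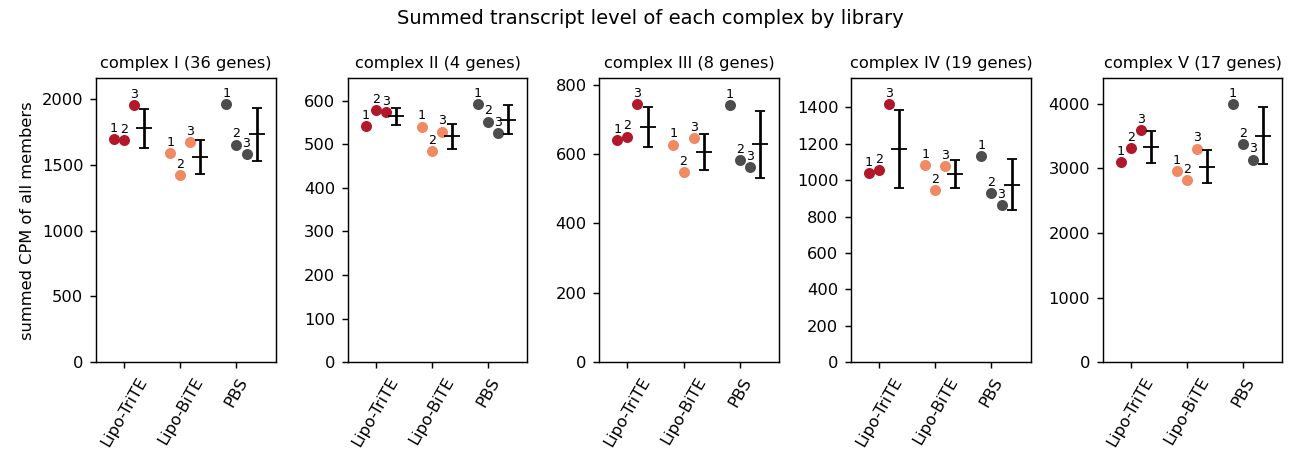
Summed CPM (y axis, from 0) of the members of each complex in each library, with Lipo-TriTE, Lipo-BiTE and PBS from left to right, points numbered by replicate, and the mean with its SD in black (n = 3 each). PBS 1 lies above the other PBS libraries in all 5 panels, and only complexes I and II separate Lipo-TriTE from Lipo-BiTE.

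**Figure D3:**
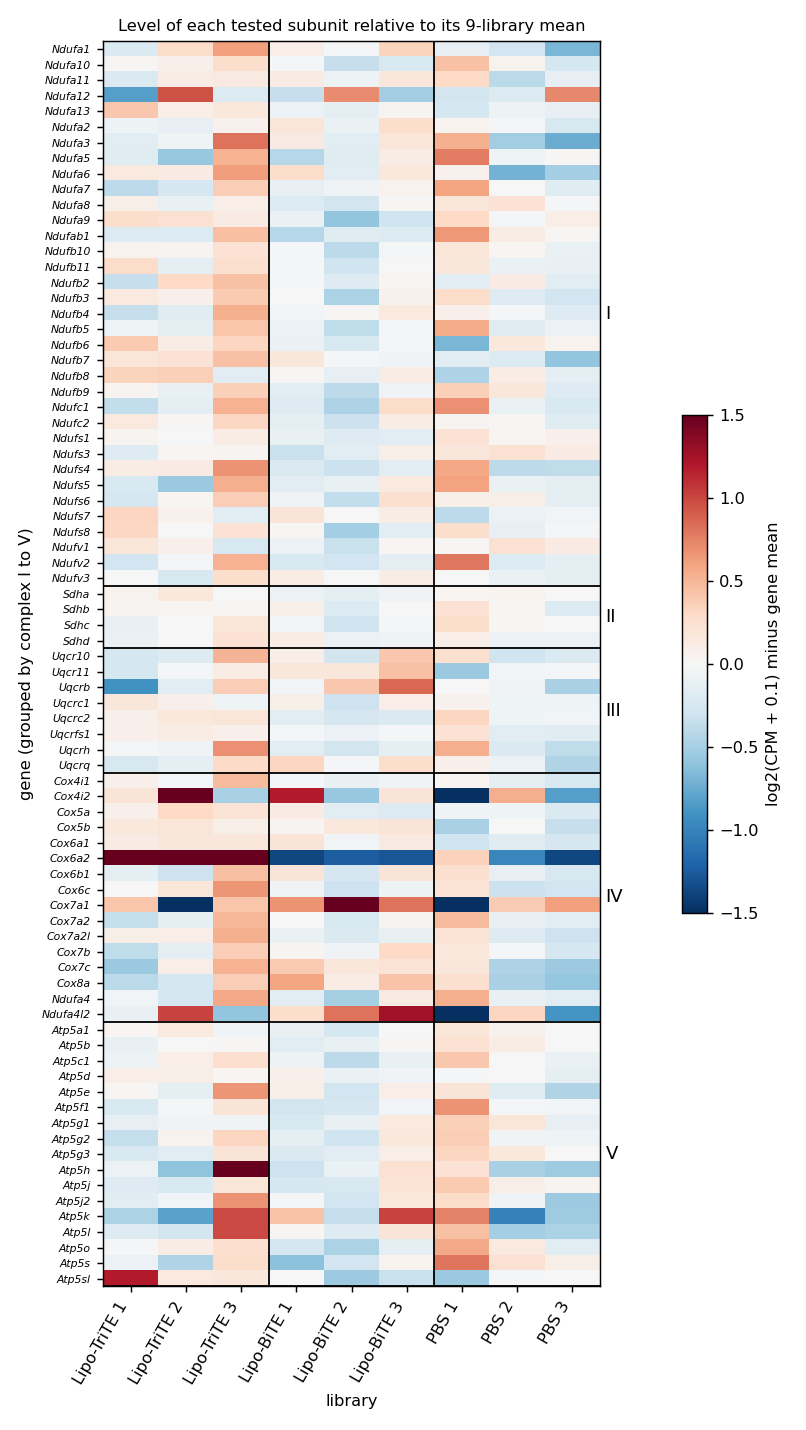
Level of 80 tested members (rows, by complex) in each library (columns), as log2(CPM + 0.1) minus the gene's mean over the 9 libraries, with colours saturating at 1.5 in either direction. The columns of PBS 1 and Lipo-TriTE 3 hold mostly high values across complexes, and Cox6a2 is the row in which all 3 Lipo-TriTE libraries stand out.

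Promoter sequences of the called members are shown because NRF1, GABPA and YY1 are known to bind many respiratory chain promoters. RefSeq windows of 300 bases (GRCm38.p6; 250 bases before to 50 after the start) were matched by symbol for 66 of 84 members. Shares are of genes, and a gene with several windows counted when any of them held a match. The core of the NRF1 motif, GCGCNTGCG on either strand, was found for 23 of 66 members (34.8%). It was found for 14.2% of the 10391 tested genes with a window and for 7.12% of all 27025 symbols. The GABPA core, CCGGAAG, was found for 24.2% of members against 18.7% and 9.93%, and the YY1 core, AANATGGCG, for 15.2% against 5.59% and 2.76%. At least 1 of these was found for 41 members (62.1%), against 33% of the tested genes with a window and 17.3% of all symbols. A match shows these letters only, not binding. Each window below runs 5′ to 3′ on the gene's strand with matches in capitals: Ndufa6 at chr15:82354242-82354541 (minus strand), Ndufb7 at chr8:83566508-83566807 (plus), Cox6a1 at chr5:115348909-115349208 (minus) and, as the uncalled member with the most counts, Atp5b at chr10:128083057-128083356 (plus).
Ndufa6: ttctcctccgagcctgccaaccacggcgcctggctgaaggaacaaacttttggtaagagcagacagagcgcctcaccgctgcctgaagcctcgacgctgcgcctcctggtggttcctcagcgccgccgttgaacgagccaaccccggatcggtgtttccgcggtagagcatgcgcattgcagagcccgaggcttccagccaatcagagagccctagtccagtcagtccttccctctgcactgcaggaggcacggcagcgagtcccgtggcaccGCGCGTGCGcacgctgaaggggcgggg
Ndufb7: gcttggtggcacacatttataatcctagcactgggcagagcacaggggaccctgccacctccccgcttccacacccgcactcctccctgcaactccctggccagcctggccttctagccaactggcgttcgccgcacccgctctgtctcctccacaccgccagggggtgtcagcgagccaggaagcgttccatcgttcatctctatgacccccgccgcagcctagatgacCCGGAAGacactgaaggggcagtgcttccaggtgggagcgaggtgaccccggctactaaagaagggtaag
Cox6a1: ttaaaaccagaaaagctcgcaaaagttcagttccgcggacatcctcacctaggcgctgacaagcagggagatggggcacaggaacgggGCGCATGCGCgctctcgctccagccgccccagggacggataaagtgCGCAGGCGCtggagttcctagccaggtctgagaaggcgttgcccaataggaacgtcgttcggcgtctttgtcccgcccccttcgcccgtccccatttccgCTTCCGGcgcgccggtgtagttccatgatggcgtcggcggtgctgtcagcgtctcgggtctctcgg
Atp5b: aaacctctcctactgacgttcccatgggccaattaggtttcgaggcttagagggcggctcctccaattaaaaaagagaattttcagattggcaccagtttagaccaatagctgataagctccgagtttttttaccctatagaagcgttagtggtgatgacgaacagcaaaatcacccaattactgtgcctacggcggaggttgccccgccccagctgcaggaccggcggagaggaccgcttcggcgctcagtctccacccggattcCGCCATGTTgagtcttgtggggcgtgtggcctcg
The Ndufa6 window holds an NRF1 match, that of Ndufb7 a GABPA match, that of Cox6a1 NRF1 and GABPA matches and that of Atp5b a YY1 match. Called and uncalled members thus both carry such letters. No window for Cox6a2 is shown.

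Complex I takes electrons from NADH, and its 7 nuclear-encoded core subunits carry the flavin and iron-sulphur centres. Of its 36 members, 2 rose in Lipo-TriTE against PBS (5.56%, against 18.9% of all tested genes), both accessory subunits, and 0 passed in the other comparisons, where 2 (Lipo-BiTE over PBS) and 1 (direct) had an unadjusted edgeR p under 0.05 and DESeq2 called 0 and 1 (Ndufa9). The median log2 fold change of complex I was −0.14 for Lipo-BiTE over PBS, 0.06 for Lipo-TriTE over PBS and 0.20 in the direct comparison. The 7 core subunits had medians of −0.25, −0.11 and 0.14, and the 29 accessory subunits medians of −0.07, 0.07 and 0.22. Groups did not overlap, with Lipo-TriTE above Lipo-BiTE, for 9 of 36 members, where 16.1% of all genes did so, and with Lipo-TriTE below for 0.

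Ndufb7, an accessory subunit of the membrane arm, had 42.4, 43.7 and 50.9 CPM in Lipo-TriTE, 42.2, 36.9 and 36.2 CPM in Lipo-BiTE and 33.6, 32.6 and 24.8 CPM in PBS libraries. Every Lipo-TriTE library lay above every other library, and every Lipo-BiTE library above every PBS library. The rise in Lipo-TriTE against PBS was 1.51-fold (log2 0.59, SE 0.16, edgeR adjusted p = 0.0179), and the difference from Lipo-BiTE did not pass (log2 0.25, adjusted p = 0.379). The call was lost without PBS 3 (adjusted p = 0.0814) and without Lipo-TriTE 3 (0.0635). In the deposited gene models it lies on chromosome 8 from 87620403 to 87625361, plus strand.

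Ndufa6, an accessory subunit at the base of the peripheral arm, had 39.3, 38.5 and 54.7 CPM in Lipo-TriTE, 42.8, 31.5 and 39.5 CPM in Lipo-BiTE and 36.9, 21.6 and 24.8 CPM in PBS libraries. Lipo-TriTE 3 was far the highest and PBS 1 the highest of its group, yet Lipo-TriTE and PBS did not overlap. The rise in Lipo-TriTE against PBS was 1.59-fold (log2 0.67, SE 0.23, edgeR adjusted p = 0.0434). The call was lost without PBS 2 (0.155), PBS 3 (0.135), Lipo-BiTE 1 (0.0501), Lipo-BiTE 2 (0.0575), Lipo-TriTE 2 (0.0506) or Lipo-TriTE 3 (0.157). It lies on chromosome 15 from 86106304 to 86110637, minus strand.

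The core subunits did not pass. Ndufs1, the largest iron-sulphur subunit, had 88.1, 85.9 and 92.7 CPM in Lipo-TriTE, 79.6, 75.1 and 77.2 CPM in Lipo-BiTE and 100.2, 87.4 and 90.4 CPM in PBS libraries. Its Lipo-BiTE libraries were the lowest 3 of the 9, with a log2 difference of −0.26 from PBS (adjusted p = 0.154). Ndufv1, the NADH-binding subunit, had 72.6 to 97.6, 68.1 to 87.9 and 86.9 to 100.9 CPM in Lipo-TriTE, Lipo-BiTE and PBS libraries, with overlap in all comparisons.

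Among accessory subunits, Ndufa9, which helps join the peripheral and membrane arms, had 81.8, 79.3 and 73.9 CPM in Lipo-TriTE, 63.4, 45.1 and 55.1 CPM in Lipo-BiTE and 83.9, 66.5 and 72.8 CPM in PBS libraries. Its Lipo-BiTE libraries were the lowest of the 9, and the difference missed the threshold against PBS (log2 −0.45, adjusted p = 0.0731) and for Lipo-TriTE against Lipo-BiTE (log2 0.52, adjusted p = 0.0573). Ndufb8, whose protein is often used as a marker of assembled complex I, had 30 to 43.3, 31 to 36.5 and 24.6 to 36.5 CPM in Lipo-TriTE, Lipo-BiTE and PBS libraries and did not pass. Ndufv2, a core subunit with an iron-sulphur centre, stood at 123 CPM in Lipo-TriTE 3 and 149 CPM in PBS 1 and at 70.5 to 84.9 CPM in the other 7 libraries.

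Complex II is succinate dehydrogenase, which also serves in the TCA cycle and is encoded wholly in the nucleus. None of its 4 members passed in any comparison: by edgeR 0 had an unadjusted p under 0.05 in each, and DESeq2 called 0. Sdha, the flavin subunit, had 268, 290.3 and 257 CPM in Lipo-TriTE, 244, 235 and 249.6 CPM in Lipo-BiTE and 266, 269 and 257 CPM in PBS libraries. Its Lipo-BiTE libraries were the lowest 3. Sdhb, the iron-sulphur subunit, had 84.6 to 86 CPM in Lipo-TriTE, 72.7 to 89.3 CPM in Lipo-BiTE and 72.7 to 97.3 CPM in PBS libraries, with a log2 fold change of 0.00 in Lipo-TriTE against PBS. The membrane anchors Sdhc and Sdhd stood at 93.9 to 116 and 93.2 to 116 CPM in Lipo-TriTE, 82.9 to 100.6 and 93.9 to 108 CPM in Lipo-BiTE, and 103 to 122 and 93.6 to 107 CPM in PBS libraries. Complex II was narrowly bounded: all 4 intervals lay within 2-fold in each comparison, and extended at most 0.31 to either side on the log2 scale.

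Complex III moves electrons from coenzyme Q to cytochrome c. Its 8 members had medians of 0.08 for Lipo-BiTE over PBS, 0.12 for Lipo-TriTE over PBS and 0.02 in the direct comparison, and none passed by edgeR or DESeq2; at an unadjusted p under 0.05 there were 1, 0 and 1. Uqcrc2, a core protein, had 162, 172 and 175 CPM in Lipo-TriTE, 138, 129 and 132 CPM in Lipo-BiTE and 192, 148 and 149.8 CPM in PBS libraries. Its Lipo-BiTE libraries were the lowest 3 (log2 0.35 for Lipo-TriTE against Lipo-BiTE, adjusted p = 0.125). Uqcrc1, the other core protein, had 155 to 182, 130.2 to 174 and 155 to 169 CPM, and Uqcrfs1, the Rieske iron-sulphur protein, 98.1 to 101, 87.8 to 91.4 and 81.9 to 109 CPM, in Lipo-TriTE, Lipo-BiTE and PBS libraries. Uqcr11, a small subunit, went the other way from Uqcrc2, with 19.8, 23.4 and 25.7 CPM in Lipo-TriTE, 26.8, 26.8 and 32.4 CPM in Lipo-BiTE and 16.2, 23.1 and 23.2 CPM in PBS libraries. Its Lipo-BiTE libraries were the highest 3, without a call (log2 0.46 against PBS, adjusted p = 0.13). Uqcr11 has 2 near-identical pseudogenes that could share its reads.

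Complex IV is cytochrome c oxidase, and several of its nuclear subunits come as paired isoforms. Of 19 members 16 were tested, 2 rose in Lipo-TriTE against PBS (12.5% of those tested, against 18.9% of all genes) and 1 in the direct comparison (6.25%, against 4.88%). The medians were 0.11 for Lipo-BiTE over PBS, 0.32 for Lipo-TriTE over PBS and 0.08 in the direct comparison, and 14 of 16 members had a positive fold change in Lipo-TriTE against PBS, as did 8338 of 16596 genes in all.

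Cox6a2, the isoform of subunit VIa known from heart and skeletal muscle, had 6.31, 5.01 and 5.7 CPM in Lipo-TriTE (130, 79 and 88 counts), 0.473, 0.527 and 0.509 CPM in Lipo-BiTE (6, 7 and 7 counts) and 1.78, 0.649 and 0.475 CPM in PBS libraries (24, 11 and 8 counts). All Lipo-TriTE libraries lay far above all others, PBS 1 was the highest of the rest, and Lipo-BiTE and PBS overlapped. The rise was 5.92-fold against PBS (log2 2.57, SE 0.49, edgeR adjusted p = 0.00282) and 11.1-fold against Lipo-BiTE (log2 3.48, SE 0.53, adjusted p = 0.00501). Both calls held in 17 of 17 alternatives, with adjusted p-values up to 0.0158 against PBS and up to 0.0317 against Lipo-BiTE; against PBS the log2 value was 3.30 without PBS 1, which moved it by more than 1.5-fold. Lipo-BiTE against PBS did not pass (log2 −0.91, adjusted p = 0.27). The gene lies on chromosome 7 from 137785222 to 137786174, minus strand, and has no near-identical copy in the annotation searched.

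Some marker lists that moved with Cox6a2, or are of a tissue it is known from, are given beside it. The T cell markers, given above, were also highest in Lipo-TriTE libraries. The summed level of 10 skeletal muscle markers was 27.6 to 33.8 CPM in Lipo-TriTE, 23.3 to 28.7 CPM in Lipo-BiTE and 32.2 to 35.2 CPM in PBS libraries, and none was at 0 in all libraries. Of the 4 muscle markers tested, Mylpf and Atp2a1 rose and Tnnt3 fell in Lipo-TriTE against PBS. Tnnt3, a fast troponin, had 12.3, 22.6 and 20.4 CPM in Lipo-TriTE and 31.3, 30.2 and 29.1 CPM in PBS libraries. Mylpf, a fast myosin light chain, had 5.1, 4.76 and 3.63 CPM in Lipo-TriTE and 0.817, 1.36 and 0.891 CPM in PBS libraries. A list of 9 plasmacytoid dendritic cell genes, chosen after the data were seen, summed to 524 to 828 CPM in Lipo-TriTE, 342 to 378 CPM in Lipo-BiTE and 344 to 359.9 CPM in PBS libraries; 7 of 9 rose and 1 fell in Lipo-TriTE against PBS, and 6 rose in Lipo-TriTE against Lipo-BiTE. Siglech, a surface lectin of those cells, had 108, 64.2 and 87.6 CPM in Lipo-TriTE, 6.71, 6.39 and 8.07 CPM in Lipo-BiTE and 8.83, 4.31 and 4.75 CPM in PBS libraries. Summed B cell markers stood at 384 to 1136 CPM in Lipo-TriTE, 13.45 to 29.5 CPM in Lipo-BiTE and 6.89 to 10.4 CPM in PBS libraries. The part of muscle, plasmacytoid dendritic, B or T cells in the Cox6a2 values was not tested.

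Cox6a1, the common isoform of the same subunit, had 121, 125 and 125 CPM in Lipo-TriTE, 127, 108 and 122 CPM in Lipo-BiTE and 90.2, 97.6 and 93.2 CPM in PBS libraries. Both treated groups lay above PBS with no overlap, and overlapped each other. The difference in Lipo-TriTE against PBS was 1.32-fold (log2 0.40, SE 0.12, edgeR adjusted p = 0.0257) and passed in 9 of 17 alternatives; it was lost without any single PBS library (0.0666 to 0.0857) and without Lipo-TriTE 2 (0.0571) or 3 (0.0618). Lipo-BiTE against PBS gave 1.27-fold (log2 0.35, adjusted p = 0.0727). It lies on chromosome 5 from 122760620 to 122764767, minus strand. Cox6a1 exceeded Cox6a2 in every library, per length as well: mean RPKM, a level scaled to gene length and depth, was 159.5 for Cox6a1 and 3.5 for Cox6a2.

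In the other isoform pairs the common form dominated and neither form passed. Cox4i1 had 263 to 371 CPM in Lipo-TriTE, 246 to 264 CPM in Lipo-BiTE and 228 to 271 CPM in PBS libraries, whereas Cox4i2, known from lung and induced by low oxygen, had 0.583, 2.92 and 0.324 CPM in Lipo-TriTE, 1.26, 0.301 and 0.582 CPM in Lipo-BiTE and 0, 0.767 and 0.238 CPM in PBS libraries. Cox7a2, the common form of VIIa, had 45.2 to 82.4, 49.1 to 59.9 and 52 to 80.7 CPM, and Cox7a1, the muscle form, 0.127 to 0.972, 1.18 to 2.18 and 0 to 1.13 CPM, in Lipo-TriTE, Lipo-BiTE and PBS libraries. Every Lipo-BiTE library was above the others for Cox7a1 in CPM, without a call (log2 1.14 against PBS, edgeR adjusted p = 0.45). Its counts were low, at 15, 29 and 18 in Lipo-BiTE and 0, 16 and 19 in PBS libraries. Lipo-BiTE 1 at 1.18 CPM and PBS 3 at 1.13 CPM were close, and their TMM factors were 0.87 and 1.04. Cox7a2l, a relative that has been linked to supercomplexes of complexes III and IV, had 218 to 298, 178 to 191 and 166 to 237 CPM in the same order. Of the VIIb pair, only Cox7b was found in the table, at 40.5 to 68, 50.9 to 64.8 and 44.3 to 58.6 CPM.

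The remaining 3 complex IV members did not pass the filter on low counts with all 9 libraries. Cox6b2, the testis form of VIb, had 13, 13 and 3 counts in Lipo-TriTE, 12, 2 and 2 counts in Lipo-BiTE and 0, 0 and 1 counts in PBS libraries. It passed the filter and was called higher in Lipo-TriTE against PBS when Lipo-BiTE 2, Lipo-BiTE 3 or Lipo-TriTE 3 was left out. It was also tested, without a call in that comparison, when any single PBS library or Lipo-TriTE 1 was left out. The same held with PBS 1 and Lipo-TriTE 3 both left out, and with no filter. The common form Cox6b1 had 65.2 to 110.3, 68 to 92.5 and 68.6 to 95.9 CPM. Cox8c, also a testis form, had 4 counts in all and Cox8b, the muscle form, had 0. The common form Cox8a had 40.4, 44.7 and 68.9 CPM in Lipo-TriTE, 80.7, 58 and 72.1 CPM in Lipo-BiTE and 62.9, 38 and 35.6 CPM in PBS libraries. PBS 1 overlapped the Lipo-BiTE range, and the difference in Lipo-BiTE against PBS did not pass (log2 0.63, adjusted p = 0.124), although it did without PBS 1 (log2 0.93, adjusted p = 0.0361). Ndufa4 had 44.6 to 78.7, 37.5 to 58.2 and 47.2 to 76.9 CPM and Ndufa4l2, known as a hypoxia-induced relative, 0.389 to 1.4, 0.789 to 1.67 and 0.0742 to 0.826 CPM, in Lipo-TriTE, Lipo-BiTE and PBS libraries.

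Of the single-form subunits, Cox5b, which binds zinc, had 43.4, 44.3 and 41.5 CPM in Lipo-TriTE, 40.2, 43.3 and 44.6 CPM in Lipo-BiTE and 27.8, 38.8 and 30.6 CPM in PBS libraries. Both treated groups lay above PBS, and both differences missed the threshold (log2 0.41, adjusted p = 0.0651 for Lipo-TriTE; log2 0.40, adjusted p = 0.106 for Lipo-BiTE). Cox5a had 44.7 to 51.8, 36.5 to 46.1 and 36.4 to 40.5 CPM, and Cox6c 65.7 to 103, 52.6 to 62.9 and 52.1 to 75.3 CPM, in Lipo-TriTE, Lipo-BiTE and PBS libraries; neither passed.

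**Figure D4:**
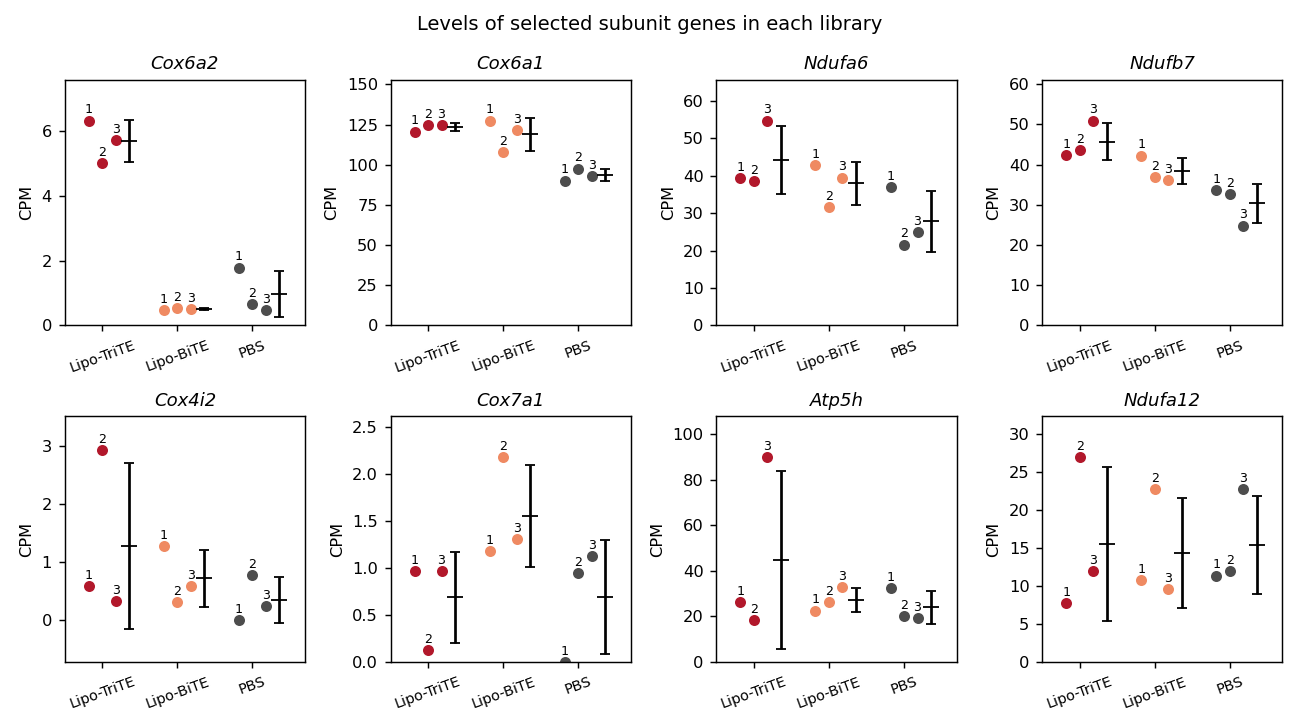
CPM (y axis) of 8 members in each library, with Lipo-TriTE, Lipo-BiTE and PBS from left to right, points numbered by replicate, and the mean with its SD in black (n = 3 each). The top row holds the 4 members that rose in Lipo-TriTE against PBS; in the bottom row Cox4i2, Cox7a1, Atp5h and Ndufa12, none of them called, vary between libraries of a group, with Atp5h at 89.8 CPM in Lipo-TriTE 3 alone.

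Complex V makes ATP with a rotating ring of c subunits driving the F1 head. None of its 17 members passed by edgeR; 2, 1 and 1 had an unadjusted p under 0.05 for Lipo-BiTE over PBS, Lipo-TriTE over PBS and in the direct comparison. DESeq2 called Atp5sl higher in Lipo-TriTE against PBS and against Lipo-BiTE. The complex medians were −0.19, −0.04 and 0.18 in the same order. Atp5b, the catalytic beta chain, had 958, 1035 and 1042 CPM in Lipo-TriTE, 926, 959 and 1047 CPM in Lipo-BiTE and 1212, 1113 and 1032 CPM in PBS libraries. Atp5a1, the alpha chain, had 802.5, 868 and 760.4 CPM in Lipo-TriTE, 726.5, 656 and 793 CPM in Lipo-BiTE and 893, 824 and 789 CPM in PBS libraries. Both chains overlapped between all groups, with log2 fold changes of −0.19 and −0.20 in Lipo-BiTE against PBS. The c ring genes Atp5g1, Atp5g2 and Atp5g3, which encode the same mature protein behind different targeting peptides, had log2 fold changes of −0.23, −0.07 and −0.22 for Lipo-TriTE over PBS and −0.21, −0.18 and −0.25 for Lipo-BiTE over PBS. Atp5g3 was the most abundant of them, at 189 to 253, 190.3 to 237 and 221 to 277 CPM in Lipo-TriTE, Lipo-BiTE and PBS libraries.

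Some complex V values rested on 1 library or may be shared with copies. Atp5sl had 53.8, 26 and 26.5 CPM in Lipo-TriTE, 23.4, 16.1 and 18.7 CPM in Lipo-BiTE and 16, 23 and 23.5 CPM in PBS libraries, so that Lipo-TriTE 1 stood far above the rest (log2 0.77 against PBS, adjusted p = 0.0661; 0.35 and 0.284 without that library). Atp5h, a stalk subunit with 4 near-identical pseudogenes, had 89.8 CPM in Lipo-TriTE 3 and 18.5 to 32.9 CPM elsewhere. Atp5o, the oligomycin sensitivity subunit, had 106, 117 and 128 CPM in Lipo-TriTE, 90.8, 77.7 and 97.4 CPM in Lipo-BiTE and 160.1, 119.5 and 96.5 CPM in PBS libraries. Its difference in Lipo-BiTE against PBS did not pass (log2 −0.50, adjusted p = 0.0892), although it did without PBS 3 (adjusted p = 0.0443). In all, 29 of the 83 members found in GENCODE vM21 matched another annotated gene at 95% identity or more over at least 150 bases, with Atp5l matching 9; their counts are uncertain to that extent. None of the 4 called members was among them.

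Levels per length were compared with RPKM from the deposited gene lengths, averaged over 9 libraries. Median RPKM was 31.1 in complex I, 52.2 in complex II, 50.6 in complex III, 44.1 in complex IV and 48.9 in complex V over tested members. The F1 chains Atp5a1 and Atp5b stood highest at 252 and 245 RPKM, followed by Cox7a2l at 183 and Cox4i1 at 180. Lowest were Ndufa4l2 at 0.837, Cox4i2 at 0.984 and Ndufb2 at 1.4 RPKM. Low RPKM can come from a long model: that of Ndufb2 has 5628 bases and that of Ndufb7 4522, while the Ndufb7 transcript in GENCODE has 623.

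**Figure D5:**
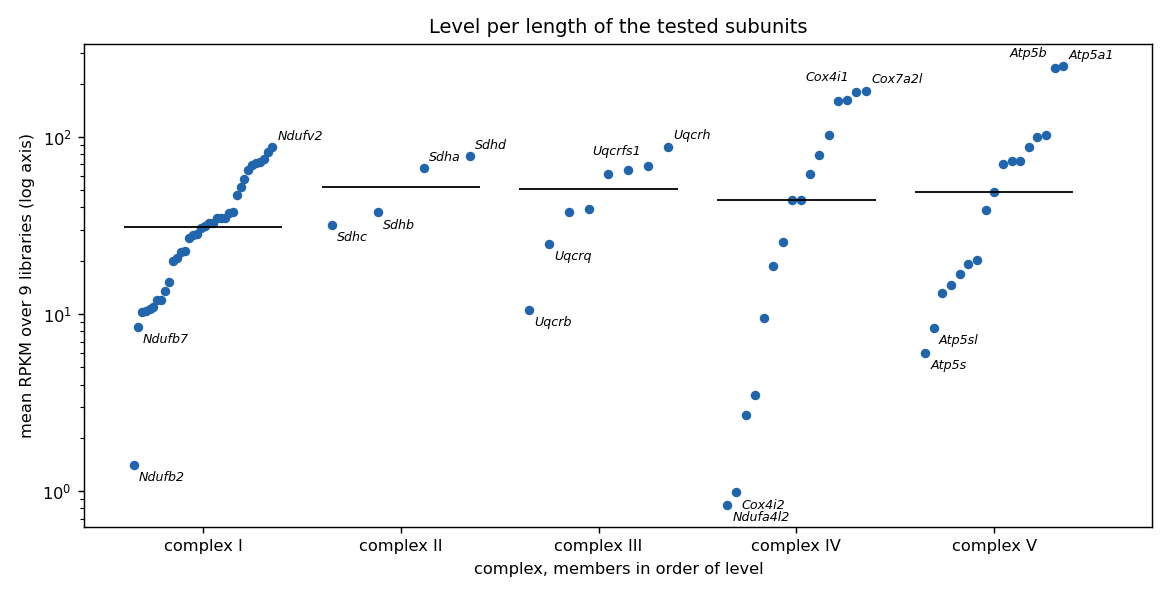
Mean RPKM over the 9 libraries (log axis) of the 81 tested members, ordered by level within each complex; bars are medians and some of the extreme members are named. Complex IV spans the widest range, from 0.837 for Ndufa4l2 to 183 for Cox7a2l.

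Other mitochondrial genes were read in the same fit, and list medians are given for Lipo-BiTE over PBS, Lipo-TriTE over PBS and the direct comparison in that order. In the same order, 32.5%, 43.9% and 26% of all tested genes had an unadjusted edgeR p under 0.05. DESeq2 called 16.6%, 22% and 8.89% of all genes higher and 6%, 15.3% and 7.26% lower. Of 42 tested assembly factors, Uqcc1, a complex III factor, fell in Lipo-BiTE against PBS (log2 −0.54, adjusted p = 0.0345) and Uqcc3, another, rose in Lipo-TriTE against PBS (log2 0.79, adjusted p = 0.0133); the medians were −0.28, −0.04 and 0.16. The Uqcc1 call was lost without any single PBS library, Lipo-BiTE 1 or 2, or Lipo-TriTE 2 (adjusted p 0.0562 to 0.133), and that of Uqcc3 without PBS 2 (0.0595). Each of these 2 calls was 2.38% of the factors tested. Among all tested genes, 3.22% fell in Lipo-BiTE against PBS and 18.9% rose in Lipo-TriTE against PBS. In the direct comparison edgeR called 0 assembly factors, with 4 at an unadjusted p under 0.05, and DESeq2 called 3 higher.

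Of 15 cytochrome c and coenzyme Q genes, Coq10b rose in Lipo-BiTE over PBS (6.67%, against 13.8% of all tested genes). In Lipo-TriTE over PBS Coq8a and Coq10b rose (13.3%, against 18.9%) and Coq7 fell (6.67%, against 14.8%). The medians of this list were −0.16, −0.02 and 0.06. Coq8a, a coenzyme Q biosynthesis regulator, had 17.2, 8.38 and 9.27 CPM in Lipo-TriTE, 5.76, 2.33 and 3.13 CPM in Lipo-BiTE and 3.93, 1.24 and 3.62 CPM in PBS libraries. Every Lipo-TriTE library lay above the others (log2 1.99 over PBS, edgeR adjusted p = 0.00997), and the call held in 17 of 17 alternatives. Coq10b, which binds coenzyme Q, had log2 fold changes of 1.13 in Lipo-TriTE (adjusted p = 0.018) and 1.18 in Lipo-BiTE (adjusted p = 0.0265) over PBS. The Lipo-TriTE call was lost without PBS 2, PBS 3 or Lipo-TriTE 3 (adjusted p 0.0524 to 0.0714), and the Lipo-BiTE call without any single PBS library or Lipo-BiTE 1 or 2 (0.0713 to 0.103). Coq7, a hydroxylase of coenzyme Q synthesis, had 9.71, 12.2 and 12.1 CPM in Lipo-TriTE, 10.4, 10.9 and 17.5 CPM in Lipo-BiTE and 22.2, 17.5 and 19.7 CPM in PBS libraries. Lipo-TriTE lay below PBS with no overlap (log2 −0.81, edgeR adjusted p = 0.0221), and the call was lost without PBS 1, PBS 3, Lipo-TriTE 1 or Lipo-TriTE 2 (0.0548 to 0.085). In the direct comparison edgeR called 0 of these genes, with 1 at an unadjusted p under 0.05, and DESeq2 called Coq8a. Cycs, cytochrome c itself, had 22.6 to 53.3, 28.7 to 42.3 and 26.9 to 49.8 CPM in Lipo-TriTE, Lipo-BiTE and PBS libraries, and Cyc1, the cytochrome of complex III, which lies outside the name rule, 77.4 to 99, 81.7 to 92.9 and 83.2 to 92.9 CPM.

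Of 17 TCA cycle enzymes, 3 fell in Lipo-TriTE against PBS (17.6%, near the 14.8% of all tested genes that fell); the medians were −0.20, −0.15 and 0.04. Those that fell were Dlat and Dlst, E2 subunits of the pyruvate and 2-oxoglutarate dehydrogenase complexes, and Idh2, mitochondrial isocitrate dehydrogenase (log2 −0.43, −0.38 and −0.48, edgeR adjusted p = 0.0232, 0.0318 and 0.0417). These calls held in 12, 7 and 4 of 17 alternatives. Dlat lost it without PBS 2 or 3 or Lipo-TriTE 1 or 2 (0.0834 to 0.11), Dlst without any single PBS or Lipo-TriTE library (0.0504 to 0.122), and Idh2 without any of these or Lipo-BiTE 2 (0.0549 to 0.161). In the other comparisons edgeR called 0, with 3 (Lipo-BiTE over PBS) and 2 (direct) at an unadjusted p under 0.05, and DESeq2 called 0 and 1.

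Of 74 mitochondrial ribosomal proteins, Mrps5 fell in Lipo-BiTE against PBS (log2 −0.83, adjusted p = 0.0199). In Lipo-TriTE against PBS Mrps23 rose (log2 0.42, adjusted p = 0.0301) and Mrps10, Mrpl38 and Mrps5 fell (log2 −0.64, −0.58 and −0.75, edgeR adjusted p = 0.0116, 0.0135 and 0.0171). Mrps23 also rose in the direct comparison (log2 0.56, adjusted p = 0.0247), with 54.7, 54.2 and 51 CPM in Lipo-TriTE against 36.9, 35.1 and 36.3 CPM in Lipo-BiTE libraries. Each of these calls was lost without at least 1 single library: the highest adjusted p over the alternatives was 0.0901 and 0.11 for Mrps5 in Lipo-BiTE and Lipo-TriTE over PBS, 0.147 and 0.118 for Mrps23 over PBS and in the direct comparison, 0.0593 for Mrps10 and 0.0732 for Mrpl38. In Lipo-BiTE against PBS 1.35% of these genes fell, against 3.22% of all tested genes. In Lipo-TriTE against PBS 1.35% rose and 4.05% fell, against 18.9% and 14.8%. In the direct comparison 1.35% rose, against 4.88%. The list medians were −0.22, −0.08 and 0.14.

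None of 11 tested regulators of mitochondrial biogenesis passed in any comparison by edgeR, with 4, 2 and 2 at an unadjusted p under 0.05 (32.5%, 43.9% and 26% of all genes). DESeq2 called Nrf1 higher and Gabpa and Tfam lower for Lipo-BiTE over PBS (16.6% of all genes higher, 6% lower). It called Gabpa lower for Lipo-TriTE over PBS (15.3% of all genes lower) and Tfam higher in the direct comparison (8.89% higher). Nrf1 had 59.5 to 64.9, 62.1 to 72.9 and 52.2 to 55.3 CPM, Gabpa 102 to 106, 100.2 to 103 and 126 to 129 CPM, and Tfam, which packs mitochondrial DNA, 55.1 to 69, 42.9 to 48.6 and 57.7 to 71.6 CPM, in Lipo-TriTE, Lipo-BiTE and PBS libraries. Both treated groups lay above PBS for Nrf1 and below PBS for Gabpa, and Lipo-BiTE lay below both others for Tfam (log2 −0.46 against PBS, edgeR adjusted p = 0.051). Without overlap, 22.7% of all tested genes lay above PBS in Lipo-BiTE and 19.4% below. For Lipo-TriTE these shares were 26% and 23.4%, and 16.1% lay higher in Lipo-TriTE than in Lipo-BiTE.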

How the data were processed

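RNA of 9 tumour samples was sequenced; the labels describe whole tumours and the design text sorted T cells. The deposited values are raw counts per gene in 1 table, as the authors' whole-number columns show; the aligner, counting tool, strand setting and genome build were not given in the sources used here, and gene identifiers in the deposited table name C57BL/6NJ. Columns named untreated were taken as the PBS libraries by replicate number, which is an inference. Entries with a gene identifier but no symbol numbered 3710 and took 1.17% to 2.14% of the counts; they were kept, as they name genes.

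Counts were tested in R 4.3.3 with edgeR 4.0.16: filterByExpr, TMM, robust quasi-likelihood F test over all 9 libraries with 1 mean per group, Benjamini-Hochberg adjustment over 16596 genes, calls at adjusted p under 0.05. The procedure was also run on counts simulated from the mean and spread of the PBS libraries alone, with fewer changed genes than were called here. No result above rests on that run. Intervals are at 95%. CPM and RPKM were computed here from the counts and the deposited gene lengths. Alternatives were other scalings and filters, DESeq2 1.42.0, a replicate block, the compared groups alone and each library left out. Near-identical copies were sought with BLAST+ 2.17.0. Plots used matplotlib 3.10.9. Floors of counts cover counting error only. The intervals of fold changes come from the edgeR fit and include the variation between libraries of a group.

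Members, gene lists and tests were chosen with earlier results of these data known. The members named are the called ones (up to the 2 smallest p-values per complex, comparison and direction), the core or first-named subunits and the paired isoforms, with up to 3 called genes per other list and comparison; Mrps23 is also given for Lipo-TriTE against PBS, as the last of 4 called there. Ndufv2, Ndufa12, Uqcr11, Atp5sl, Atp5h, Atp5o, Cycs, Cyc1, Nrf1, Gabpa, Tfam and the single marker genes were named after their values were seen. A complex I member is not reported here; it stays in the counts and medians.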

Additional observations from a re-analysis of the deposited data

How the results depend on the processing

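The count of called members depended on the processing. In Lipo-BiTE against PBS the count of higher members, 0, became 1 with no filter (Cox8a), 1 with the DESeq2 Wald test (Cox6a1) and 2 with PBS 1 and Lipo-TriTE 3 both left out, an alternative chosen after seeing the data; it was 0 to 1 without single libraries. In the same settings and order, 2666 of 33524, 2761 of 16586 and 1394 of 17053 genes in all were higher. The count of lower members, 0, became 2 with total counts (Atp5o and Ndufa9) and 1 with no filter (Atp5o), and was 0 to 1 without single libraries. In Lipo-TriTE against PBS 4 higher members became 8 with the DESeq2 Wald test and 1 to 6 without single libraries, the lowest being Cox6a2 alone without PBS 3. In Lipo-TriTE against Lipo-BiTE 1 higher member became 3 with total counts, 3 with no filter, 2 with a filter of at least 1 CPM in 3 libraries and 3 with DESeq2, and 1 to 2 without single libraries; the count of lower members, 0, became 1 with both libraries left out (Cox8a). The causes were not tested. Total-count scaling moved the all-gene median from −0.02 to −0.16 in Lipo-BiTE against PBS and from −0.01 to 0.11 in Lipo-TriTE against Lipo-BiTE.

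Over all genes, 534 were lower in Lipo-BiTE against PBS, 80 to 971 without single libraries, and 2449 in Lipo-TriTE against PBS, 1391 to 2644; 2283 and 3133 were higher, 1455 to 2656 and 2575 to 3390. In Lipo-TriTE against Lipo-BiTE 810 were higher, 276 to 1077, and 865 lower, 158 to 1120. With the replicate number as a block, the counts of higher and lower members were 0 and 0 for Lipo-BiTE over PBS, 3 and 0 for Lipo-TriTE over PBS (Cox6a2, Ndufa6 and Ndufb7), and 1 and 0 between the treated groups. Whether the numbers pair the samples is not stated, and these weak correlations cannot settle it. Same-numbered libraries had correlations of deviations from −0.194 to 0.0755. By these, 0 of 9 libraries had their own number as the best match in both other groups. Between the treated groups alone, same-numbered libraries matched best, at 0.0412, 0.0755 and 0.0333 for numbers 1, 2 and 3. Different-numbered pairs of treated libraries had −0.0705 to 0.0186. Depth limits the 3 untested members most and, among those tested, Cox4i2, Cox7a1, Ndufa4l2 and Cox6a2.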

Other observations

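Ndufa12, an accessory subunit of complex I, was high in 1 library of each group. It stood at 7.77, 26.9 and 11.9 CPM in Lipo-TriTE, 10.8, 22.7 and 9.6 CPM in Lipo-BiTE and 11.4, 12 and 22.8 CPM in PBS libraries. The gene has 1 near-identical pseudogene in the annotation searched, and the share of reads from it is unknown. It was chosen after its values were seen.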
